A study of Caenorhabditis elegans with 4 samples.

Results

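The peaks described here are the NHR-28 binding regions called in the low-recombination centre of chromosome V of Caenorhabditis elegans. They were chosen by position alone: a peak of the series-wide list belonged to the centre when its midpoint lay on chromosome V between 5900000 and 16550000 (build WS220, counted from 1). The rule found 473 peaks of 5338, or 8.86% of the list. The same rule found 71 of 806 peaks in the list of ChIP replicate 1 (8.81%) and 61 of 803 in the list of ChIP replicate 2 (7.60%). The rest of chromosome V, called its arms here, held 567 series-wide peaks, 295 of them on the left arm and 272 on the right.

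The series mapped sites bound by NHR-28 by ChIP-seq in whole hermaphrodites at the first larval stage (L1), with 2 ChIP samples and 2 input samples, all from strain OP317. Every sample, ChIP and input alike, was unc119(ed3) and carried the GFP-tagged nhr-28 transgene wgIs317(nhr-28::TY1 EGFP FLAG;unc119), which was introduced by bombardment; the strain was outcrossed 3 times. The ChIP samples were crosslinked chromatin precipitated with antibodies against GFP, and the input samples were 10% of the same kind of extract kept aside. The protocol gives growth at 20 °C, while the stage label adds an unexplained "26dC". Binding of the untagged protein was not measured, and whole larvae mix all cell types, so a site used in few cells cannot be told apart from one used weakly in many. Values of the input samples, and any sample without the transgene, were not analysed here. Nothing states that the 2 ChIP samples came from separate cultures, so the spread between them may be technical.

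NHR-28 belongs to the nuclear hormone receptors, transcription factors that bind DNA through a zinc-finger domain and are in many cases regulated by small lipophilic ligands. The family is strongly expanded in nematodes, and chromosome V is known to carry many of its genes, together with many chemoreceptor genes. Worm chromosomes are holocentric, so the centre of a chromosome is not a centromere. The autosomes are divided into a middle region with little meiotic recombination, rich in conserved and essential genes, and outer arms that recombine more and hold more repeats and young gene families.

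Each peak had a start, an end and 1 significance value from the authors' peak caller. This is a p-value or q-value, which of these was not stated; it was at most 0.001, and smaller values mark stronger peaks. The lists hold no read counts, and the depth at a peak is therefore unknown. The 95% intervals given below for shares cover counting error over peaks only and treat peaks as independent. With 2 ChIP samples and no other condition no test over samples was possible, and no p-value is given.

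The centre was more thinly covered by peaks than the arms as wholes, and this was seen in each of the 3 lists. In the series-wide list it held 44.4 peaks per Mb, against 55.3 per Mb on the arms, a ratio of 0.80. In the replicate 1 list it held 6.67 per Mb, against 9.26 on the arms (ratio 0.72), and in the replicate 2 list 5.73 per Mb, against 7.70 on the arms (ratio 0.74). How the series-wide list was made is not stated, but it is the list of the series that holds both ChIP samples and it contains 68 of the 71 centre peaks of replicate 1 and 51 of the 61 of replicate 2, so it is not an independent observation. The centre made up 50.9% of the length of V, measured to the last base covered by any peak of V (20911074). It held 45.5% of V's series-wide peaks (exact 95% interval 42.4 to 48.6), 42.8% of its replicate 1 peaks (35.1 to 50.7) and 43.6% of its replicate 2 peaks (35.2 to 52.2). The interval lay below the share of length in the series-wide and replicate 1 lists and included it in replicate 2.

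Part of the difference lay at the chromosome ends. Without the outermost 1 Mb at each end, an alternative chosen after the data were seen, the arms held 48.9 peaks per Mb and the ratio was 0.91; the interval for the share of peaks in the centre then included the share of length. The arms also differed from each other. The left arm held 50.0 series-wide peaks per Mb and the right arm 62.4. Against the left arm alone the ratio was 0.89 and the interval included the share of length, whereas against the right arm it was 0.71 and did not. Replicate 1 had 7.97 peaks per Mb on the left arm and 11.0 on the right; in replicate 2 the order turned, with 7.97 on the left and 7.34 on the right.

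**Figure D1:**
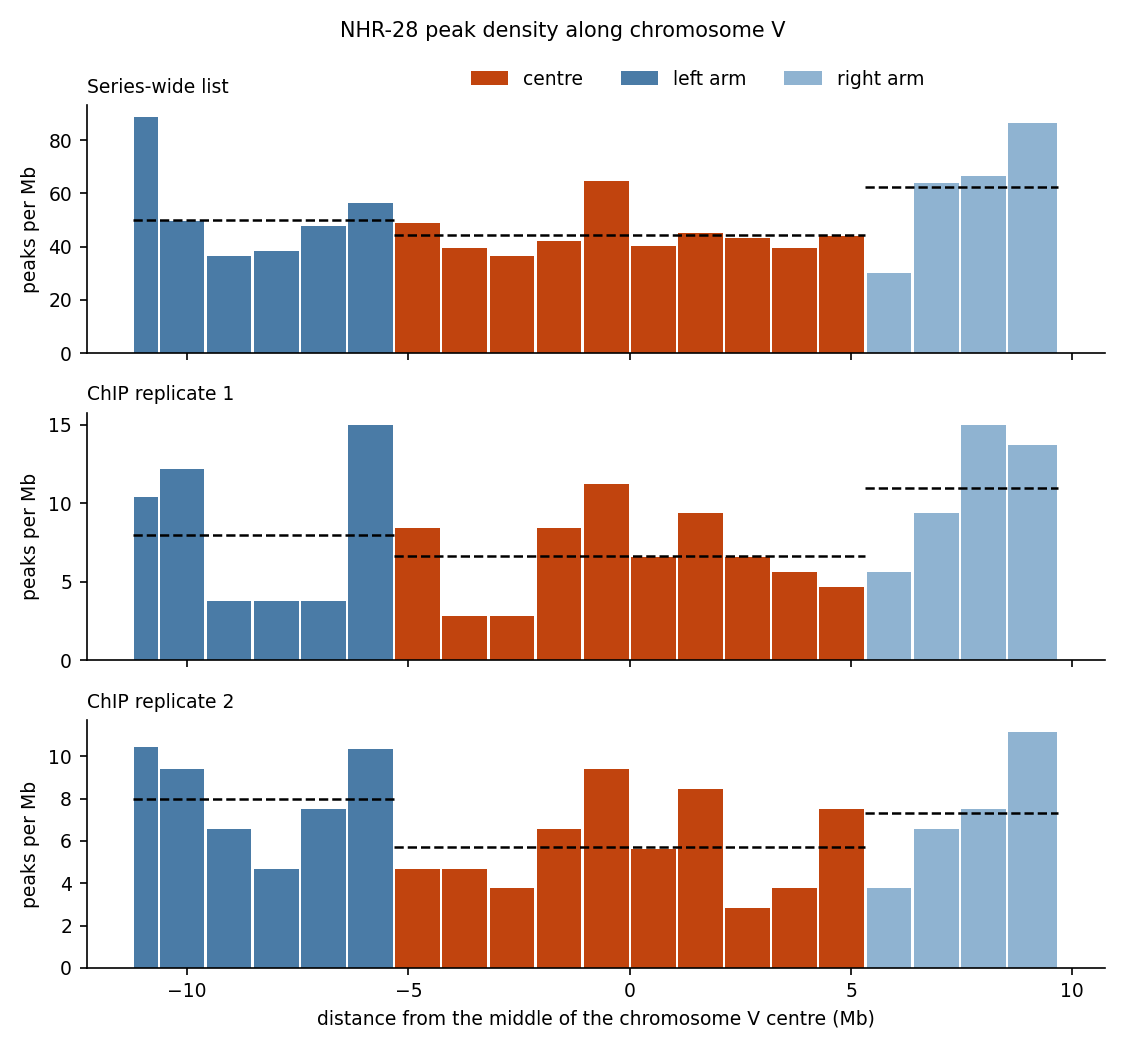
Peaks per Mb (vertical axis) in consecutive bins along chromosome V (horizontal axis, distance in Mb from the middle of the centre) for the series-wide list and each ChIP replicate; dashed lines are the averages of the centre and of each arm. Bins of the centre lie between 36.6 and 64.8 peaks per Mb in the series-wide list, while the outermost bins reach 88.7 on the left arm and 86.6 on the right, and the right-arm bin next to the centre holds 32 peaks in 1.065 Mb.

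Within the centre the peaks were spread fairly evenly, apart from a crowded stretch in the middle. Divided into 10 equal bins of 1.065 Mb, the centre held a median of 45.5 series-wide peaks per bin. The densest bin, from 10160001 to 11225000, held 69 peaks, and the other 9 bins held 39 to 52. The replicate lists were also densest there, with 12 peaks in replicate 1 and 10 in replicate 2. Over all 10 bins the replicate lists ranged from 3 to 12 and from 3 to 10 peaks. The sparsest bin, from 8030001 to 9095000, held 39 series-wide peaks. Of these, 1 (2.56%) had a significance value under 1e-06, against 9 of the 69 (13.0%) in the densest bin. The share was 11.8% over the whole centre and 14.9% over all series-wide peaks.

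Chosen after its values were seen, the most crowded neighbourhood lay inside the densest bin. Each of 3 neighbouring peaks there, at 10719673 to 10720069, 10726767 to 10726879 and 10729574 to 10729939, had 14 other peaks within 50 kb of its midpoint, against a median of 4 for all members. None of the 3 was in both replicate lists. The last of them was in the replicate 1 list (series-wide value 4.81e-06), and the others were in neither list.

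By the median, peaks in the centre stood further apart than on either arm. The median gap between neighbours was 14930 bp in the centre, against 11857 bp on the left arm and 8775 bp on the right arm. Gaps of at most 2 kb made up 64 of the 472 in the centre (13.6%, Wilson 95% interval 10.8 to 16.9), against 38 of 294 on the left arm (12.9%, 9.56 to 17.2). On the right arm 57 of 271 gaps were this short (21.0%, 16.6 to 26.3). The shortest gap in the centre was 210 bp and the longest 133249 bp. The arms reached a longer maximum, 318898 bp.

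The centre had 6 gaps over 100 kb, 719486 bp together, and no peak of either replicate list lay wholly inside any of them. The longest ran from 11381600 to 11514848, the next from 6864271 to 6992935 (128665 bp) and the third from 8781601 to 8902608 (121008 bp). In the sparsest bin 3 of the 6 lay close together, and the stretch from 8654174 to 9078444 (424 kb) held 8 series-wide peaks in all. Of these 8, the peak at 8936099 to 8936406 was in both replicate lists.

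**Figure D2:**
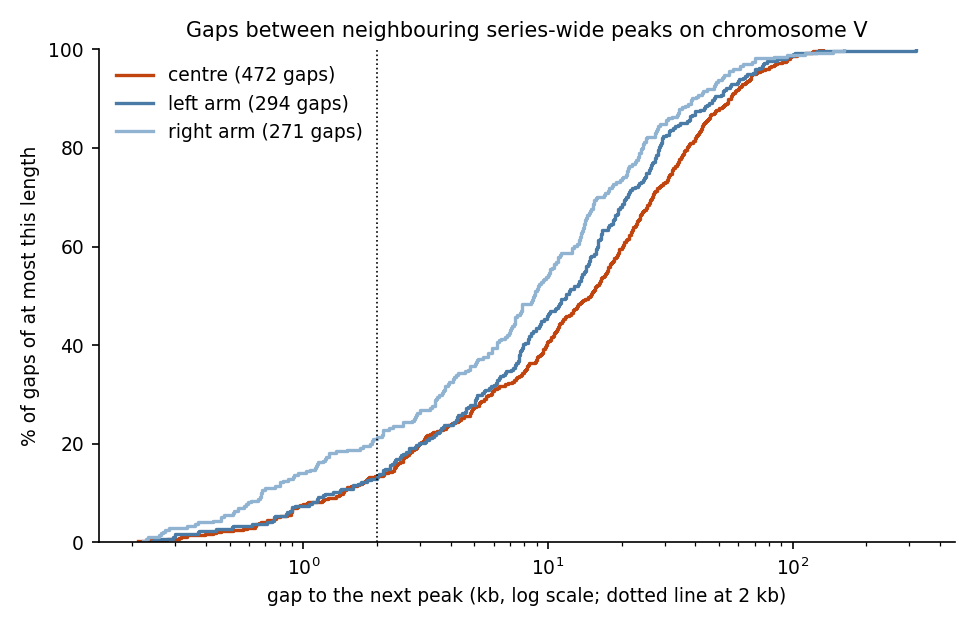
Share of gaps between neighbouring series-wide peaks (vertical axis, %) that are at most a given length (horizontal axis, kb, log scale) in the chromosome V centre and on its left and right arm. The centre curve lies furthest to the right through the middle of the range, at a median of 14930 bp, and the right arm curve is highest at the dotted 2 kb line (21.0% of gaps).

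Most peaks of the centre stood alone. When neighbours at most 2 kb apart were joined, 360 of the 473 were single, 76 formed 38 pairs, 21 formed 7 groups of 3 and 16 formed 4 groups of 4. Most peaks of the arms were also single, 400 of 567, and the arms held the largest group on V, of 8 peaks. The 4 groups of 4 in the centre lay at 12299731 to 12303743, 10858361 to 10862669, 6319146 to 6323318 and 13361871 to 13367078. None of these 16 peaks had a significance value under 1e-06, and 1 of the 16 was in a replicate list. Over all series-wide peaks 14.9% had such a value and 22.0% were in at least 1 replicate list. The smallest value in each of these 4 groups lay between 1.46e-06 and 1.91e-05. Over all 113 grouped peaks the median value was 0.000102, against 0.000179 for single peaks. A value under 1e-06 was held by 19 of the 113 (16.8%) and by 37 of the 360 single peaks (10.3%). That difference was 6.54 percentage points (Newcombe 95% interval -0.25 to 15.0). Grouped peaks were in at least 1 replicate list in 30 of 113 cases (26.5%, 19.3 to 35.4), against 73 of 360 single peaks (20.3%, 16.4 to 24.7). The difference of 6.27 percentage points had a Newcombe 95% interval from -2.26 to 15.9, which includes 0.

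In no list did the strongest peak of the centre reach the strongest of the left arm, while its order against the right arm varied. In the replicate 1 list the smallest value was 1.28e-12 in the centre (rank 16 of the list), against 6.82e-25 on the left arm (rank 2) and 3.96e-10 on the right arm (rank 31). In replicate 2 it was 4.49e-07 in the centre (rank 55), against 8.12e-20 on the left arm (rank 5) and 8.46e-15 on the right arm (rank 8). The first 50 peaks of replicate 2 therefore held 0 from the centre and 5 from the arms, and those of replicate 1 held 1 from the centre and 6 from the arms. Among the first 200, the centre had 14 peaks in replicate 1 (7.0%) and 12 in replicate 2 (6.0%), closer to its 8.81% and 7.60% of those lists. In the series-wide list the smallest value was 3.03e-22 in the centre, against 1.72e-24 on the left arm and 4.57e-23 on the right arm.

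Over the whole list the share of strong peaks in the centre was not told apart from that on the arms. A value under 1e-06 was held by 56 of the 473 centre peaks (11.8%, 9.23 to 15.1) and by 72 of the 567 arm peaks (12.7%, 10.2 to 15.7), with 14.9% over all series-wide peaks. The difference between centre and arms was -0.86 points (Newcombe 95% interval -4.83 to 3.22). Against the other chromosomes, where the share was 15.5%, it was -3.66 points, and that interval excluded 0 (-6.49 to -0.27). Ordered by strength and divided into 10 parts, the series-wide list had its smallest share of centre peaks in the strongest part, 33 of 534 peaks or 6.18%. The share in the other parts ran from 6.74% to 10.9%. The median value was 0.000163 in the centre, 0.00012 on the arms and 0.000105 on the other chromosomes.

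The support by the replicates was then compared. Of the 473 centre peaks, 103 (21.8%, 18.3 to 25.7) overlapped a peak of at least 1 replicate list by 1 bp or more, against 127 of 567 on the arms (22.4%, 19.2 to 26.0) and 22.0% over the whole list. The difference from the arms was -0.62 points (Newcombe 95% interval -5.64 to 4.48). Both lists were overlapped by 17 centre peaks (3.59%, 2.26 to 5.68), against 25 on the arms (4.41%, 3.00 to 6.43) and 4.50% over the whole list. That difference was -0.82 points (-3.24 to 1.70). Replicate 1 alone accounted for 52 centre peaks and replicate 2 alone for 34, and 370 (78.2%) were in neither. In all, 69 centre peaks (14.6%) were in the replicate 1 list, beside 13.9% of all series-wide peaks, and 51 (10.8%) were in the replicate 2 list, beside 12.6%. None of these centre shares stood apart from those of the arms or of the other chromosomes, as each interval of a difference included 0.

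Replicate support in the centre went with the strength of a peak in the series-wide list, which may rest on the same ChIP reads. Of the 56 centre peaks with a value under 1e-06, 46 (82.1%, 70.2 to 90.0) were in at least 1 replicate list, against 58 of 72 such peaks on the arms (80.6%) and 77.7% of those in the whole list. Between 1e-06 and 1e-04 the numbers were 44 of 140 in the centre (31.4%, 24.3 to 39.5) and 60 of 194 on the arms (30.9%), beside 25.2% in the whole list. On the other chromosomes the share in this class was 23.9%, and the difference of 7.57 points from the centre had a Newcombe 95% interval from 0.12 to 15.9. It was the only interval to exclude 0 among the 6 differences of these classes from the arms or the other chromosomes, and it was not adjusted for their number. At 1e-04 and above the numbers were 13 of 277 in the centre (4.69%, 2.76 to 7.86) and 9 of 301 on the arms (2.99%), beside 3.83% in the whole list. All but 1 of the 17 centre peaks in both lists were in the strongest of these classes, and none was in the middle class. The strongest class likewise held 23 of the 25 peaks in both lists on the arms and 222 of the 240 over the whole list.

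**Figure D3:**
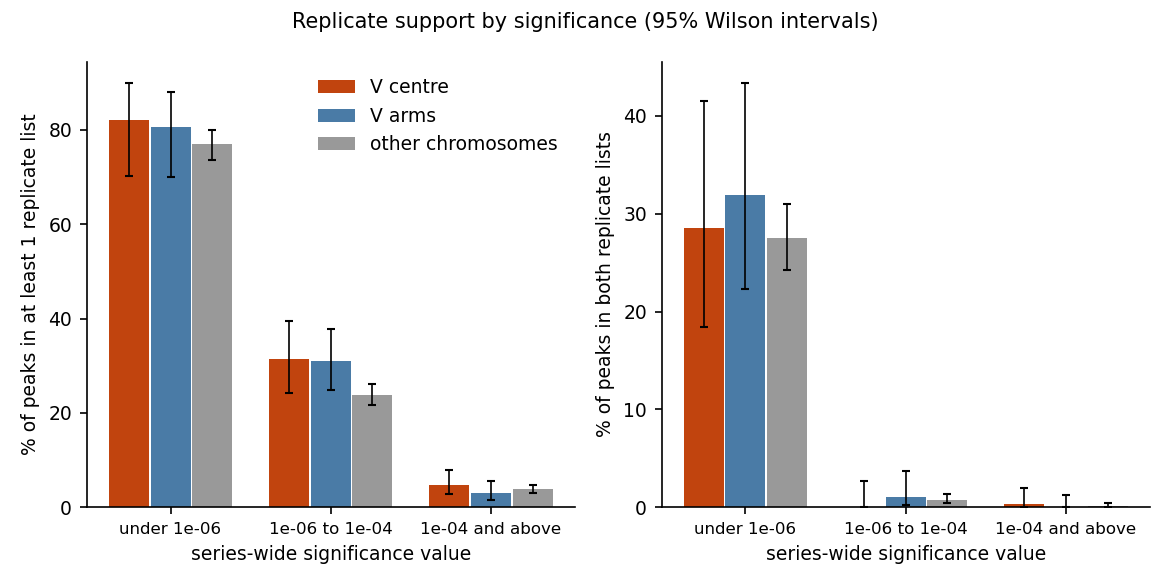
Share of series-wide peaks (vertical axes, %) found in at least 1 replicate list (left) and in both (right), by class of series-wide significance value (horizontal axes), for the chromosome V centre, the V arms and the other chromosomes, with 95% Wilson intervals. Support in at least 1 list falls from class to class in each of the 3 parts; in the centre it is 82.1%, 31.4% and 4.69%.

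The 17 peaks found in both ChIP samples are the best supported binding regions of the centre, and they were spread along it: 9 of the 10 bins held at least 1, and no bin held more than 3. Their median series-wide width was 420 bp (266 to 904 bp). In each of the 17, 1 peak of each replicate list was matched, and the midpoints of the replicate peaks lay a median of 26.5 bp apart (range 2.5 to 186 bp). The series-wide peak was wider than either replicate peak in all 17. The values of a region in the 3 lists are printed together below as deposited. A common scale of the lists was not shown, so a smaller value in 1 list than in another does not show stronger binding there.

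The strongest region of the centre lay in its right part, at 14200017 to 14200436. Its value was 1.28e-12 in replicate 1 and 6.75e-07 in replicate 2, with 3.03e-22 in the series-wide list, where it ranked 18 of 5338. It stood nearly alone, with the nearest neighbour 48367 bp away. The next region, at 15880411 to 15881157, was 747 bp wide and had values of 2.74e-08 in replicate 1, 6.29e-07 in replicate 2 and 1.33e-18 in the series-wide list. The third, at 9344127 to 9344682, had 8.66e-07 in replicate 1, 1.33e-06 in replicate 2 and 3.82e-15 in the series-wide list. These last 2 regions were of similar rank in the replicates: 59 and 58 for the first of them, 122 and 74 for the other.

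A pair of strong regions lay 2223 bp apart near the left end of the centre. The first, at 6224306 to 6224843, had values of 1.65e-06 in replicate 1, 1.64e-05 in replicate 2 and 9.43e-14 in the series-wide list. The second, at 6227067 to 6227970, was the widest of the 17 at 904 bp, and had 2.61e-05 in replicate 1, 0.000288 in replicate 2 and 1.32e-10 in the series-wide list. A further region within 50 kb, at 6246394 to 6247704, was in the replicate 1 list only. It had a series-wide value of 1.21e-12 but a replicate 1 value of 0.000612, which ranked 635 of 806.

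The other members of the 17 were weaker in the series-wide list than the first 4 described above. The region at 11764404 to 11764734 had 5.97e-08 in replicate 1 and 3.23e-06 in replicate 2, and the region at 12291678 to 12292011 had 5.28e-08 and 0.000145 in the same order. At 10897206 to 10897480 the values were 8.89e-07 in replicate 1 and 3.60e-05 in replicate 2. At 15766218 to 15766483, the narrowest of the 17 (266 bp), they were 4.63e-07 and 0.000148. These 4 regions had series-wide values between 3.69e-13 and 1.56e-11.

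A further 4 regions had larger series-wide values. At 10466311 to 10467136 the values were 4.32e-06 in replicate 1 and 0.000288 in replicate 2, and at 11531959 to 11532562 they were 1.62e-06 and 0.00055. The last of these regions had the largest distance between its replicate midpoints, 186 bp. At 9546821 to 9547193 the values were 4.11e-05 in replicate 1 and 0.000127 in replicate 2, and at 14685612 to 14686020 they were 1.35e-05 and 0.000128. Their series-wide values ran from 1.11e-10 to 5.53e-10.

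The replicate lists ranked some regions differently. The region at 12343539 to 12343993 had 0.000183 in replicate 1 (rank 395 of 806) and 2.12e-06 in replicate 2 (rank 78 of 803), with 1.61e-11 in the series-wide list. The region at 12291678, described above, ranked 68 in replicate 1 and 280 in replicate 2. At 8936099 to 8936406 the values were 0.000149 in replicate 1 and 4.69e-05 in replicate 2, and at 9730796 to 9731575 they were 0.000125 and 9.21e-05. The last of the 17 lay at 14769376 to 14769748. Its values were 0.000227 in replicate 1 (rank 434), 0.000112 in replicate 2 (rank 265) and 0.000112 in the series-wide list. This region ranked 2685 in the series-wide list and was the only member of the 17 outside the strongest class.

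**Figure D4:**
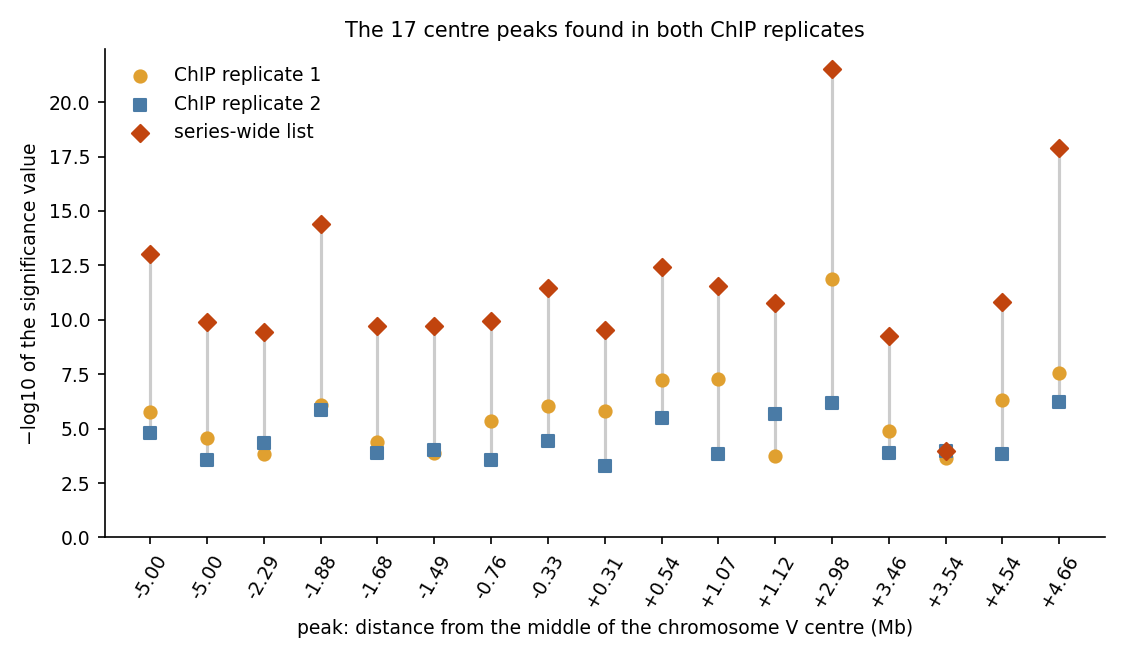
Significance (vertical axis, −log10 of the authors' value) of the 17 centre peaks found in both ChIP replicates, ordered along the chromosome (horizontal axis, distance in Mb from the middle of the centre), in the series-wide list and each replicate list. Vertical lines join the values of a peak; a common scale of the lists was not shown. The tallest is the peak at +2.98 Mb (3.03e-22 in the series-wide list), and the peak at +3.54 Mb has 0.000227 in replicate 1, 0.000112 in replicate 2 and 0.000112 in the series-wide list.

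The order of strength was only loosely shared by the replicates within the centre. Across the 17 matched pairs Spearman's rho was 0.27, and Pearson's r of the −log10 values was 0.52. These coefficients describe peaks chosen for being in both lists and carry no p-value. The 2 pairs with the smallest values in replicate 1 also had the smallest in replicate 2, and without them rho was -0.06. In the replicate 1 list 17 of the 71 centre peaks (23.9%, 15.5 to 35.0) had a partner in replicate 2, against 25 of 95 on the arms (26.3%, 18.5 to 36.0) and 29.0% over the whole replicate 1 list. In the replicate 2 list 17 of 61 (27.9%, 18.2 to 40.2) had a partner in replicate 1, against 25 of 79 on the arms (31.6%, 22.4 to 42.5) and 29.3% over the whole replicate 2 list. The partnered peaks were mainly strong ones: in replicate 1, 16 of the 36 more significant centre peaks had a partner, against 1 of the other 35. In replicate 2 it was 14 of 31, against 3 of 30.

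Several strong regions of the centre were listed in only 1 ChIP sample. In replicate 1 the strongest unpartnered peaks lay at 13462854 to 13463280 (2.78e-07), 14055107 to 14055300 (3.75e-07) and 6000090 to 6000652 (8.28e-06). In replicate 2 they lay at 15999989 to 16000686 (4.49e-07), 13953133 to 13953553 (2.33e-05) and 7935795 to 7935985 (3.38e-05). The first of these was the strongest peak of the whole centre in replicate 2, ahead of every partnered region, and replicate 1 had no peak there. All 6 overlapped a series-wide peak. A peak missing from a list did not pass the authors' threshold there, which does not show that the region was unbound.

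Ordered by the series-wide value, the strongest centre peaks of replicate 1 alone were those at 13462734 to 13463345 (2.46e-13), 6246394 to 6247704 (1.21e-12) and 12408648 to 12409293 (1.28e-11). Those of replicate 2 alone were at 15999989 to 16000721 (5.02e-10), 13953123 to 13953568 (1.06e-07) and 13082284 to 13082915 (2.69e-07). Of the 52 centre peaks in replicate 1 alone, 25 (48.1%) had a series-wide value under 1e-06, beside 48.2% of all 502 such peaks of the series-wide list. Of the 34 in replicate 2 alone, 5 (14.7%) had one, beside 35.3% of all 434. The difference of these shares from the whole list was not tested.

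Centre peaks in neither replicate list were mostly weak, but 10 of the 370 (2.70%) had a value under 1e-06. The share of such peaks was 14 of 440 (3.18%) on the arms and 177 of 4162 (4.25%) over the whole list. The strongest in the centre were at 7095125 to 7095857 (2.46e-09, 733 bp wide), 10715683 to 10716353 (1.06e-08, 671 bp) and 14848411 to 14849118 (4.05e-08, 708 bp). All 3 had another series-wide peak within 2 kb. In the opposite direction, 3 of the 71 centre peaks of replicate 1 (4.23%, beside 7.32% of that whole list) and 10 of the 61 of replicate 2 (16.4%, beside 15.8%) had no series-wide counterpart. These were weak peaks of their own lists. The strongest in replicate 1 lay at 13769433 to 13769435 (0.000452), 12581893 to 12581900 (0.000653) and 9212679 to 9212877 (0.000894). In replicate 2 they lay at 12417532 to 12417575 (0.00039), 16542109 to 16542200 (0.000449) and 8570062 to 8570118 (0.00054).

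Peak width in the centre differed between lists. The median series-wide peak was 174 bp wide in the centre (quartiles 90 and 287 bp), against 155 bp on the arms (70 and 280 bp). The replicate lists went the other way: 237 bp in the centre against 243 bp on the arms in replicate 1, and 199 bp in the centre against 254 bp on the arms in replicate 2. By arm, the replicate 1 median was 271 bp on the left and 191.5 bp on the right, so the centre lay between them. In replicate 2 both arms were above the centre, with 251 bp on the left and 289.5 bp on the right. The widest replicate peaks of the centre, 588 bp in replicate 1 and 698 bp in replicate 2, were narrower than the widest on the arms, 1285 bp and 1584 bp in the same order. Series-wide peaks covered 106981 bp of the centre, or 10045 bp per Mb, against 11463 bp per Mb on the arms together. The left arm, at 9931 bp per Mb, lay slightly below the centre, and the right arm had 13537 bp per Mb.

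Wider peaks were also the stronger ones, with Spearman's rho 0.52 between width and −log10 value over the 473 centre peaks and 0.50 over the 567 arm peaks, as a description across peaks of 1 list. In the centre this did not extend to the widest class. The 5 centre peaks of at least 1000 bp had a median value of 1.91e-05. This was stronger than the 0.000157 of the 357 centre peaks of 50 to 499 bp, but weaker than the median of those of 500 to 999 bp. Of the 5, 1 was in a replicate list, with a series-wide value of 1.21e-12, and none was in both. On the arms the 7 peaks of this width had a median value of 5.80e-17, and 5 were in both lists; on the other chromosomes 17 of 38 were in both, with a median of 2.62e-11. The widest in the centre lay at 13362943 to 13365428 (2486 bp, 1.91e-05), 15431208 to 15433273 (2066 bp, 0.000302) and 13703154 to 13704529 (1376 bp, 9.86e-05). None of these 3 was in a replicate list. Between 500 and 999 bp the centre had 31 peaks with a median value of 9.72e-08, of which 7 were in both lists. On the arms 10 of the 31 peaks of this width were in both lists, with a median of 9.44e-09. On the other chromosomes it was 79 of 292, with a median of 2.68e-08.

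**Figure D5:**
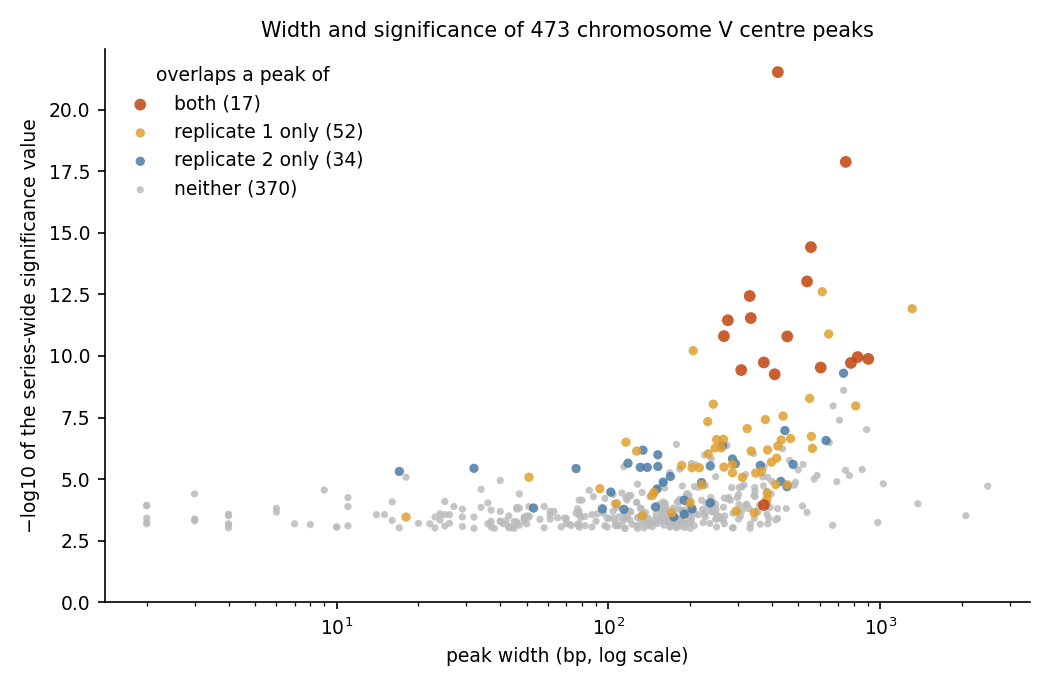
Width (horizontal axis, bp, log scale) and significance (vertical axis, −log10 of the series-wide value) of the 473 centre peaks, coloured by the replicate lists they overlap. The 17 peaks in both lists are 266 to 904 bp wide and all but 1 are strong, while the 3 widest peaks, of 1376 to 2486 bp, are in neither list.

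The peaks nearest to the limits of the centre had values above 1e-05 on either side. At the left limit the first peak inside lay at 5917580 to 5918035 (1.70e-05, in the replicate 1 list) and the last outside at 5843323 to 5843521 (3.00e-05, in neither list). At the right limit the last peak inside lay at 16538297 to 16538307 (0.000128, in neither list) and the first outside at 16571922 to 16572116 (4.58e-05, in the replicate 2 list).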

How the data were processed

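The deposited data analysed here are 3 GFF files of peaks: a list for each of the 2 ChIP samples and a series-wide list. Per the file headers the build is WormBase WS220, and the source field of every line names PeakSeq as the caller. Each peak's significance, a p-value or q-value (which was not stated), is the authors' own and served only to rank, describe and split peaks. Not given in the sources used here are the aligner, the PeakSeq version, the threshold, the controls and any pooling of reads.

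Midpoints placed peaks in the centre or on the arms of V. Overlap meant at least 1 bp. Shares carry Wilson or exact 95% intervals and their differences Newcombe intervals, computed with Python 3.11.15 and scipy 1.17.1. The search for overlaps and the Newcombe intervals were tested on simulated data. Named peaks are those in both replicate lists, the 3 strongest of each other class and of each replicate's unpartnered or unmatched peaks, the 3 widest, the longest gaps, the largest groups and those at the limits. Members, rule and comparisons were chosen with earlier results of these data known. No genome or annotation of WS220 was used, so peaks carry no gene names or sequences. No column of per-sample values was left out.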

Additional observations from a re-analysis of the deposited data

How the results depend on the processing

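The ratio of peak density in the centre to the arms stayed below 1 under all 10 alternatives, from 0.71 to 0.91. The interval for the share of peaks in the centre no longer excluded the share of length against the left arm alone (0.89) or without the outermost 1 Mb at each end (0.91, chosen after the data were seen). In single replicate lists the ratio ran from 0.72 (replicate 1) to 0.74 (replicate 2, interval including the share of length). Under these alternatives no difference in replicate support over all strengths had an interval excluding 0. That for at least 1 list turned to 1.18 points with only values of at most 1e-04, and ran from -1.46 to 0.0239 points with a replicate left out; with 1 list left, the share in both lists is that same share, so leaving a replicate out does not bear on it. The share of peaks under 1e-06 was lower by an interval excluding 0 only against the other chromosomes (-3.66 points). The share of short gaps was 6.67% with only values of at most 1e-04, and 7.84% or 27.5% with a limit of 1 kb or 5 kb. The Spearman rank correlation of the matched replicate peaks was -0.0607 without the 2 pairs strongest in replicate 1. The difference in median width, 19 bp, was 5 bp without peaks under 50 bp and 30.5 bp with only values of at most 1e-04, and its sign differed from that in the replicate lists (-6 and -55 bp). The partnered share stayed within its interval under 5 alternatives. No paired analysis was possible because ChIP and input samples, the groups that share replicate numbers, were not compared; values within each replicate list are given instead. Depth cannot be read from the lists.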

Other observations

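Of the 473 centre peaks, 80 (16.9%, Wilson 95% interval 13.8 to 20.6) were under 50 bp wide, against 110 of 567 on the arms (19.4%, 16.4 to 22.9) and 17.9% over the whole series-wide list, so narrow peaks are not particular to the centre. None of these 80 was in both replicate lists, 3 were in 1 of them, and none had a value under 1e-06. On the arms 0 of the 110 were in both lists, 9 were in at least 1, and 1 had a value under 1e-06. On the other chromosomes the numbers were 0, 45 and 8 of 763 in the same order. The smallest width in the centre was 2 bp, as at 6590106 to 6590107, with a value of 0.00038.

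In 1 example, chosen after its values were seen, the lists drew the same region very differently. At 6000104 to 6000121 an 18 bp series-wide peak lay inside a 563 bp peak of replicate 1, the third strongest unpartnered centre peak of that list (8.28e-06). A second series-wide peak, at 6000332 to 6000679 (348 bp, 5.62e-06), followed after a gap of 210 bp and overlapped the same replicate 1 peak.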
